A study of Homo sapiens with 4 samples.

Results

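Genes of cellular iron uptake, storage, release and their control, together with the lipocalin LCN2, were followed in the human gastric adenocarcinoma line AGS. The list holds 10 genes (TFRC, STEAP3, SLC11A2, FTL, FTH1, SLC40A1, ACO1, IREB2, HAMP and LCN2), a list of names put together from known roles in iron handling while earlier results of these arrays were known. Of the 10, 8 were measured, among 19775 genes in all. FTH1, the ferritin heavy chain, and IREB2, iron regulatory protein 2, were not analysed here, because no probe set was listed under their symbols. A probe set is the group of short array probes that reads 1 transcript. The 8 genes were read by 20 probe sets that carried a single gene symbol, and each gene is represented by its brightest probe set, with the others as a check. The 2 control arrays hold RNA of AGS cells in which PRMT6 is wild-type. The 2 knockout arrays came from AGS cells infected with a lentivirus of the lentiCRISPR v2 type carrying a guide against PRMT6, an arginine methyltransferase of histone H3, then selected with puromycin and cloned by limiting dilution. The labels do not name the clone behind each knockout array, nor say whether the control cells carried a vector or were cloned, so effects of the guide, of cloning and of selection cannot be told apart.

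Cells take up iron when transferrin binds the transferrin receptor and is drawn into endosomes, where STEAP3 reduces the iron and SLC11A2 moves it into the cytosol. Iron that is not used is held in shells of ferritin light and heavy chains, or leaves through ferroportin (SLC40A1), which the liver hormone hepcidin removes from the cell surface. The iron regulatory proteins, of which ACO1 encodes 1, bind hairpins called iron-responsive elements in several of these transcripts when iron is scarce. They protect the TFRC transcript from decay and block translation of ferritin, so a transcript level bears differently on TFRC than on FTL. LCN2 is a secreted lipocalin that captures iron-carrying siderophores and is known as a gene induced by inflammatory signals in epithelia.

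A pair of sequence stretches is printed below, with the letters that match a motif in capitals. The LCN2 stretch is shown because LCN2 had the largest change of the 8 genes, and it covers the 250 bases before the RefSeq start of the gene (chr9:128149203-128149452, GRCh38.p14, plus strand). Capitals mark the match to a 10-letter NF-kB motif with 2 free letters, searched on both strands and found here on the strand opposite to the gene. The FTL stretch is shown as an example of an iron-responsive element. It covers 30 bases after the start (chr19:48965329-48965358, GRCh38.p14, plus strand), and capitals mark the loop letters CAGTGN, searched in the transcribed strand after the start only.
LCN2: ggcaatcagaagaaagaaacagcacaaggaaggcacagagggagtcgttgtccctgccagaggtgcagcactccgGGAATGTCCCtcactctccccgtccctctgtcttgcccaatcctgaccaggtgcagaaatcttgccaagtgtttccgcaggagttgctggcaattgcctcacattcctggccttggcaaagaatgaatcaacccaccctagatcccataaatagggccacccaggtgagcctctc
FTL: gtctgtctcttgcttcaaCAGTGTttggac

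The LCN2 match begins 175 bases before the start, and 1.61% of 35116 RefSeq windows of the same length, 250 bases before to 50 after a start, hold the NF-kB motif. The CAGTGN letters of FTL begin at base 39 of the transcript, and 6.36% of windows hold these letters in their 50 transcribed bases. HAMP has a match to the same short letters at base 24. The core of the antioxidant response element, TGACNNNGC, lies in 13.3% of windows and in none of the 13 windows of the 9 genes with an entry. An ATF4 and C/EBP composite motif, TGATGNAAN, lies in 3.61% of windows and among these genes in 1 of the windows of SLC11A2, on the opposite strand. A match of letters is a description and not evidence of a bound or working site.

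The deposited values are log2 intensities, on which a difference of 1 is a 2-fold change, and array medians lay between 5.01 and 5.02. Across genes, Pearson's r was 0.997 for the control pair, 0.998 for the knockout pair and 0.983 to 0.984 for arrays from opposite groups. PRMT6 itself stood at 8.03 and 8.11 in control and at 7.79 and 7.63 in knockout cells, a fall of 0.36 (adjusted p = 0.043, limma) that was not called with any single array left out; under reference gene scaling it was -0.61 (adjusted p = 0.0065). Where its probe set lies relative to the edit was not analysed here. Of 8 simple epithelial markers 7 lay above the median gene's 5.97, with EPCAM between 12.38 and 12.57. Of the markers of other cells 1 of 8 hepatocyte, 2 of 7 neutrophil and macrophage, 1 of 8 fibroblast and 0 of 5 erythroid genes lay above it. The hepatocyte list had a median of 4.74 and 4.95 in control and 4.54 and 4.36 in knockout cells, the neutrophil and macrophage list 3.71 and 3.49 against 3.42 and 3.64, and the fibroblast list 4.10 and 4.36 against 4.24 and 4.42. Of the fibroblast markers 4 of 8 were called higher, against 12.4% of all genes, and 0 lower. COL1A1 rose by 1.56, from 8.55 and 8.60 to 10.18 and 10.09. LUM (1.37), COL3A1 (1.02) and FAP (0.36) were dim. Their group means went from 2.38 to 3.75, from 2.78 to 3.80 and from 2.75 to 3.11. COL1A2 (-0.31), THY1 (-0.27), PDGFRB (0.06) and DCN (0.12) were not called. Of the other lists 1 of 8 hepatocyte (SERPINA1, -0.49), 1 of 7 neutrophil and macrophage (CSF1R, -0.63) and 0 of 5 erythroid markers were called. The calls were in the lower direction, where 11.5% of all genes were called, and the part of these markers in the results was not tested. The hepatocyte marker ALB lay between 2.83 and 3.21, and the neutrophil genes MPO and ELANE between 2.80 and 3.64.

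In the knockout cells the transcripts of the transferrin receptor and of ferroportin were higher, by 1.74-fold and 2.70-fold, and that of LCN2 was 5.44-fold lower. The ferritin light chain, STEAP3, SLC11A2, ACO1 and hepcidin did not pass the test. A call means an adjusted p below 0.05 in limma, a linear model fitted to all 19775 genes with Benjamini-Hochberg adjustment. By this rule 2 of the 8 genes were called higher, against 12.4% of all genes, and 1 was called lower, against 11.5%. In either direction 3 of 8 were called, against 24.0% of all genes. With a change of 1 or more on the log2 scale as well, 2 of 8 were called, against 3.46%. Of the 8 genes, 7 lay above the median gene, so these shares over all genes are not matched for brightness. In the fit of brighter genes only, 4 of 7 were called in either direction, against 5567 of 9888 genes. For all 8 genes the groups did not overlap, which held for 58.2% of all genes, and the median change of the 8 was -0.09 against -0.01 over all genes. RNA came from whole cultures, so a change in the share of cells that express a gene and a change in RNA per cell cannot be told apart.

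**Figure D1:**
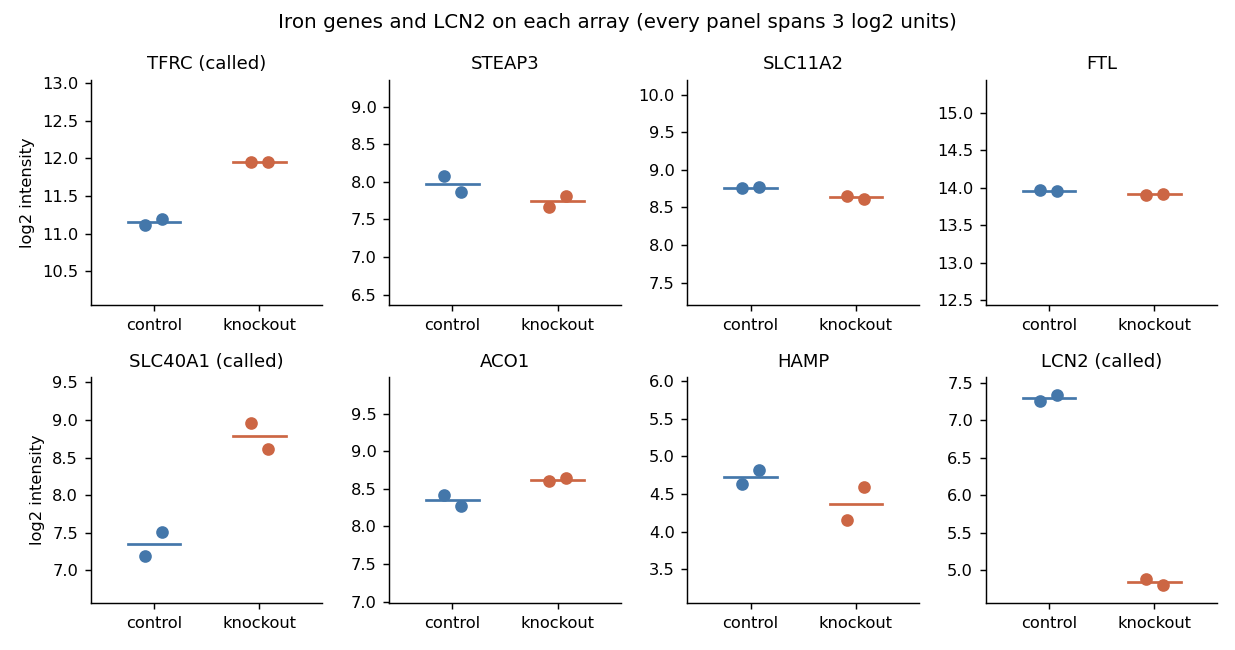
Log2 intensity of the brightest probe set of each of the 8 measured genes, with 1 point per array (2 control, 2 knockout) and a line at each group mean; all panels span the same range of log2 units. TFRC and SLC40A1 sit higher and LCN2 sits lower in knockout cells, while the groups of FTL, SLC11A2 and STEAP3 lie close together.

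On the side of uptake, TFRC, the transferrin receptor, stood at 11.11 and 11.19 in control cells and at 11.95 on each knockout array. Both knockout arrays lay above both control arrays, by at least 0.76. TFRC rose by 0.80 (log2; SE 0.08, 95% confidence interval 0.60 to 1.00; adjusted p = 0.0028, limma). The change was between 0.76 and 0.84 with any 1 array left out, but the call was lost without knockout 1 or knockout 2. The call was kept without control 1 or control 2, where a group also holds 1 array, and the cause of this difference was not tested. A fit with 1 array in a group takes its spread from the other group. A call lost in such a fit, here and below, does not show that the gene depends on that array. The mean of its 5 probe sets gave a smaller rise of 0.48, which was still called (adjusted p = 0.0067).

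STEAP3, the endosomal ferrireductase, stood at 8.08 and 7.87 in control and at 7.67 and 7.82 in knockout cells. The gap between the nearest arrays was 0.05, less than the spread within either group. The difference was -0.23 (95% confidence interval -0.50 to 0.05; adjusted p = 0.21, limma), and -0.12 without control 1. SLC11A2, the divalent metal transporter DMT1, stood at 8.76 and 8.77 in control and at 8.66 and 8.61 in knockout cells. Its groups were apart by a gap of 0.10, with a difference of -0.13 (95% confidence interval -0.32 to 0.06; adjusted p = 0.31, limma). The intervals of STEAP3 and SLC11A2 reach down to -0.50 and -0.32, so differences up to that size are compatible with these arrays.

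In storage, FTL, the ferritin light chain, was among the brightest transcripts of the arrays. It stood at 13.96 on each control array and at 13.91 and 13.92 on the knockout arrays. The difference of -0.05 had a 95% confidence interval of -0.24 to 0.14 (adjusted p = 0.72, limma). The highest intensity of any probe set was 14.04 to 14.16 by array, so FTL was read near the top of the scale, and whether its probes were saturated was not tested. Both FTL probe sets are of the type that can also read near-identical transcripts, and they gave -0.05 and -0.08.

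In release, SLC40A1, which encodes ferroportin, stood at 7.19 and 7.51 in control cells and at 8.96 and 8.61 in knockout cells. The gap between the groups was 1.10, wider than the distance between the arrays of either group. SLC40A1 rose by 1.43 (SE 0.16, 95% confidence interval 1.02 to 1.85; adjusted p = 0.0041, limma), a change larger in size than that of 98.4% of genes. Without knockout 1 the change was 1.26 and without knockout 2 it was 1.61. The call was lost in both of these fits, which hold a single knockout array. Without control 1 the change was 1.28 and without control 2 it was 1.59, and the call was kept. The cause of this difference between the fits was not tested. Averaged over its probe sets the rise was 0.87 (adjusted p = 0.012), since the dimmer of its 2 probe sets gave 0.30.

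Among the regulators, ACO1, which encodes iron regulatory protein 1, an aconitase when it carries an iron-sulfur cluster, stood at 8.42 and 8.27 in control and at 8.60 and 8.64 in knockout cells. The difference of 0.27 (95% confidence interval 0.05 to 0.50) did not pass the test across all genes (adjusted p = 0.087, limma), but it did when only the brighter genes were fitted (adjusted p = 0.022) and with an intensity trend in the prior variance (adjusted p = 0.032). Averaging its probe sets gave 0.18. HAMP, the gene of hepcidin, read 4.64 and 4.82 in control and 4.15 and 4.59 in knockout cells, below the median gene's 5.97. The knockout arrays lay apart from each other by more than the 0.05 that separated the groups, and the difference was -0.36 (95% confidence interval -0.78 to 0.06; adjusted p = 0.20, limma). Without knockout 1 it was -0.14 and without knockout 2 it was -0.58, and neither was called. Whether HAMP was above background was not analysed here.

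LCN2 stood at 7.25 and 7.33 in control cells and at 4.89 and 4.81 in knockout cells. The groups were 2.36 apart at their nearest arrays, and arrays of 1 group differed by 0.08. LCN2 fell by 2.44 (SE 0.08, 95% confidence interval -2.65 to -2.24; adjusted p = 0.00026, limma), a change larger in size than that of 99.7% of genes. Of the 3 called genes, LCN2 alone kept its call with each array left out in turn, with a change between -2.49 and -2.40 (adjusted p 0.017 to 0.026). The knockout level lay below the median gene's 5.97, and whether it exceeded background was not analysed here, so the 5.44-fold change is approximate. Of 7 neutrophil and macrophage markers CSF1R was called lower too (-0.63, adjusted p = 0.019). LYZ, which encodes lysozyme, read 12.77 and 12.88 in control and 12.36 and 11.30 in knockout cells, with no overlap, and did not pass the test (adjusted p = 0.096). The others, among them MPO (-0.03), ELANE (-0.13) and PTPRC (0.49), did not pass either. The arrays hold RNA of a cell line, and any link of these markers to the LCN2 result was not tested.

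Scaling between arrays decided which of the smaller differences passed. On the deposited scale the median change of all genes was -0.01. It became -0.26 after shifting each array to a common mean of 10 reference genes. On the deposited scale 5 of these 10 were themselves called higher and 0 lower, with a median change of 0.26. The shift thus moved the change of every gene down by the same amount, and which scale is nearer the RNA content was not tested. Under that scaling 1233 of 19775 genes were called higher and 7280 lower. The higher ones were 14.5% of called genes, against 51.9% on the deposited scale. TFRC (0.55) and SLC40A1 (1.18) were still called higher and LCN2 (-2.69) lower. FTL (-0.30, adjusted p = 0.031), SLC11A2 (-0.38, adjusted p = 0.017), HAMP (-0.61, adjusted p = 0.034) and STEAP3 (-0.48, adjusted p = 0.019) were called lower there, and ACO1 was 0.02. FTL lay close to the median gene on either scale. None of the 8 genes changed sign.

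**Figure D2:**
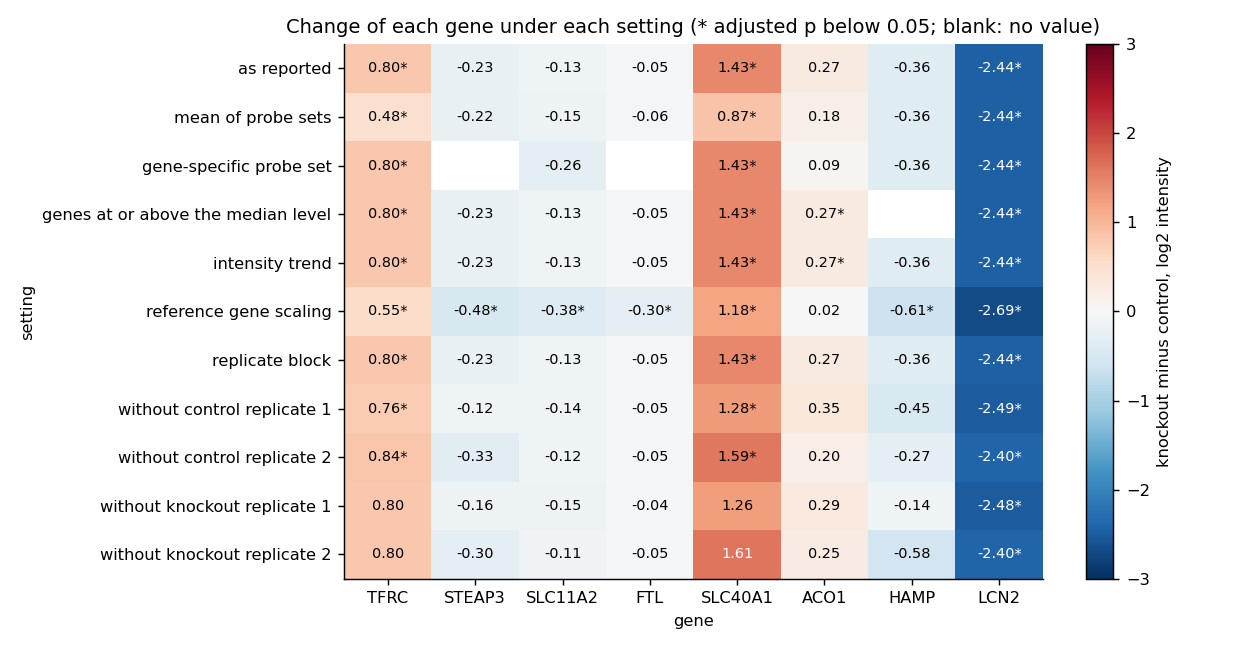
Change of each of the 8 genes (columns; knockout minus control, log2 intensity, in each cell and by colour) with all arrays as deposited and under each alternative setting (rows). A star marks an adjusted p below 0.05; LCN2 is starred in all rows, TFRC and SLC40A1 in all but those that leave out a knockout array, and blank cells had no value.

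Fitted one by one over 41091 probe sets, 4 of the 20 probe sets of these genes were called higher and 1 lower, where 9.48% and 8.89% of all probe sets were. TFRC accounted for 3 of the 4. Its brightest probe set rose by 0.80, the next by 0.89 (adjusted p = 0.0037, limma) and the third by 0.86 (adjusted p = 0.0039). The other two TFRC probe sets gave -0.25 and 0.08 and were not called; the first of them is of the cross-reading type and the other was dim, with a mean of 2.76. SLC40A1 was called on 1 of its 2 probe sets. The dimmer one read 5.00 and 4.91 in control and 5.57 and 4.95 in knockout cells, so its groups overlapped. None of the 5 probe sets of SLC11A2 was called, and all 5 lay below 0, from -0.26 to -0.09. The STEAP3 probe sets gave -0.23 and -0.21. ACO1's second probe set, with a mean of 4.03, gave 0.09. LCN2 and HAMP were each read by 1 probe set.

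**Figure D3:**
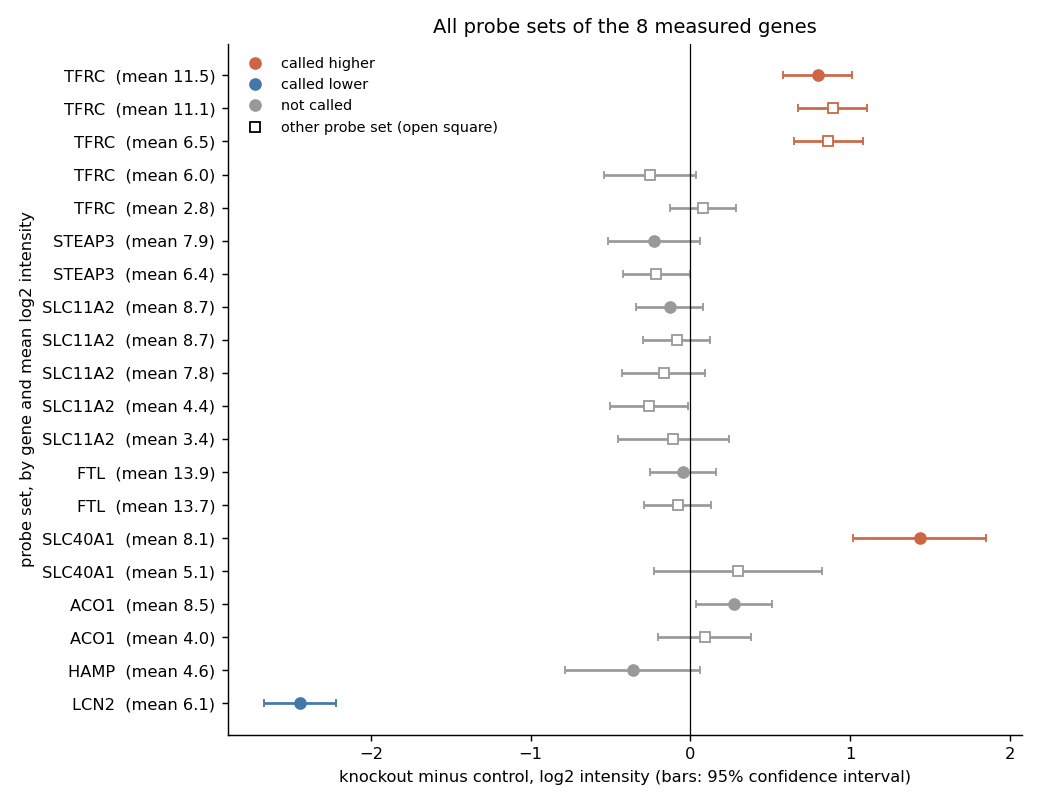
Change of each of the 20 probe sets (knockout minus control, log2 intensity) with its 95% confidence interval; filled circles are the probe set that represents the gene and open squares the others, coloured by call. The 3 brightest TFRC probe sets lie between 0.80 and 0.89, while the dimmer SLC40A1 probe set overlaps 0.

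Around these genes, 97 further genes of iron and haem handling and of LCN2 control were measured of 108 listed, in 6 lists. Of the 97, 21 were called higher and 17 lower, together 39.2% against 24.0% of all genes, with a median change of 0.01 against -0.01. Of these genes 70 lay above the median gene, so the share over all genes is not matched to them for brightness. In the fit of brighter genes only, 28 of 70 were called higher and 18 lower, against 2998 and 2569 of 9888 genes. Under reference gene scaling, where 1233 of 19775 genes were called higher and 7280 lower, 11 of the 97 were higher and 36 lower. Without 1 array the counts fell to between 1 and 9 higher and between 5 and 12 lower; both minima came without a knockout array, where 1 was higher and 5 were lower. The lists went both ways, and the changes of over 2-fold were those of HMOX1, CEBPB, PRNP and SLC48A1, which were lower, and ID1, which was higher.

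Of 16 further genes of iron import and reduction, MCOLN1 rose and 3 fell, a share of 25% that is near the 24.0% of all genes. MCOLN1, a lysosomal channel that lets iron out into the cytosol, rose by 0.41 (SE 0.08). SLC46A1, a folate transporter also described as a haem carrier, fell by 0.78 (SE 0.09), the STEAP family member STEAP1 fell by 0.75 (SE 0.08), and SLC39A14, an importer of zinc and of iron not bound to transferrin, fell by 0.50 (SE 0.08). SLC39A14 read 12.22 and 12.19 in control and 11.74 and 11.67 in knockout cells, with no overlap. TFR2, the second transferrin receptor, was -0.02 and the transferrin gene TF -0.02. SLC39A14 was -0.32 when its probe sets were averaged and -0.75 under reference gene scaling, called in both. SLC46A1 was not called with averaged probe sets (-0.21, adjusted p = 0.15), nor MCOLN1 under reference gene scaling (0.16). All 4 calls were lost when either of the knockout arrays was dropped, and those of SLC39A14 and MCOLN1 also with either control array left out (highest adjusted p 0.11 and 0.13).

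Genes of iron release and of the regulatory proteins split evenly, with 2 of 10 higher and 2 lower, or 40.0% called against 24.0% of all genes. Of the 10, 9 lay above the median gene, so the share over all genes is not matched for brightness. HEPH, a ferroxidase that works with ferroportin, rose by 0.89 (SE 0.16), from 6.01 and 5.54 to 6.68 and 6.66. Its fellow ferroxidase CP, ceruloplasmin, rose by 0.42 (SE 0.08) at a dim 3.05 to 3.48. PRNP, the prion protein, fell by 1.46 (SE 0.08), and EPAS1, an oxygen-regulated transcription factor whose transcript also carries an iron-responsive element, fell by 0.98 (SE 0.08). NCOA4, which delivers ferritin to the lysosome, was 0.24 (adjusted p = 0.081, limma), and FBXL5, which marks IREB2 for destruction, was -0.32 (adjusted p = 0.084). HEPH was not called on its gene-specific probe set (0.20, adjusted p = 0.20), and CP was not when its probe sets were averaged (0.09, adjusted p = 0.51), where HEPH (0.55) and EPAS1 (-0.60) were smaller but called; nor was CP under reference gene scaling (0.17). HEPH and EPAS1 lost their calls without knockout 1 or knockout 2 (highest adjusted p 0.15 and 0.054), CP with any array left out (0.12), and PRNP with none.

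In the hepcidin control list 2 of 12 genes rose and 2 fell, or 33.3% called against 24.0% of all genes. That share is not matched for brightness either, since 9 of the 12 lay above the median gene. ID1, a target of bone morphogenetic protein signalling, stood at 10.00 and 10.05 in control and at 12.26 and 12.40 in knockout cells. It rose by 2.31 (SE 0.09; adjusted p = 0.00034, limma), 4.95-fold. The inhibitory SMAD7 rose by 0.95 (SE 0.11), while the ligand BMP2 fell by 0.84 (SE 0.11) and NEO1, a receptor of the hemojuvelin pathway, fell by 0.68 (SE 0.09). HFE was 0.26 and TMPRSS6 -0.09, and neither passed the test. SMAD7, BMP2 and NEO1 lost their calls when either of the knockout arrays was dropped, and BMP2 also without control 2 (highest adjusted p 0.074, 0.066 and 0.076).

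Haem genes were called in both directions, 5 of 18 higher and 5 lower, or 55.6% against 24.0% of all genes. Of the 18, 15 lay above the median gene, so the share over all genes is not matched for brightness. HMOX1, the inducible oxygenase that opens haem and frees its iron, stood at 12.13 and 12.10 in control and at 9.74 and 9.87 in knockout cells. It fell by 2.31 (SE 0.09; adjusted p = 0.00029, limma), 4.97-fold, with no overlap, and kept its call with each array left out. SLC48A1, a transporter that brings haem from lysosomes to the cytosol, fell by 1.10 (SE 0.08), and BACH1, a haem-binding repressor of HMOX1, fell by 0.93 (SE 0.09). UROD, an enzyme of haem synthesis, rose by 0.93 (SE 0.08). Across the synthesis pathway CPOX (0.74) and ALAD (0.44) were also called higher, whereas the entry enzyme ALAS1 (-0.34) and the final enzyme FECH (-0.42) were called lower. BACH1 gave -0.34 with the mean of its probe sets, still called. BACH1 lost its call without knockout 2 (adjusted p = 0.056) and UROD when either of the knockout arrays was dropped (highest adjusted p 0.054).

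Of 25 genes of mitochondrial iron and iron-sulfur cluster assembly, 24 lay above the median gene. Of the 25, 8 rose and 4 fell, or 48.0% called against 24.0% of all genes, which is not matched for brightness. Their median change was 0.25, close to the 0.26 of the reference genes, and it was -0.002 under reference gene scaling, where 5 were called higher and 7 lower. BOLA3, which helps pass clusters to mitochondrial enzymes, rose by 0.65 (SE 0.09), LYRM4, a partner of the cysteine desulfurase NFS1, rose by 0.64 (SE 0.07), and CIAPIN1, an electron carrier of the cytosolic assembly pathway, rose by 0.58 (SE 0.08). HSPA9, the mitochondrial chaperone that works with the scaffold ISCU, fell by 0.93 (SE 0.08), from 12.35 and 12.37 to 11.38 and 11.47. The mitochondrial iron importer SLC25A37 (-0.56), CISD2 (-0.44) and ISCU (-0.38) were the other genes called lower. BOLA3, LYRM4 and CIAPIN1 were still called under reference gene scaling, at 0.40, 0.39 and 0.33. LYRM4 was 0.38 with averaged probe sets and was not called on its gene-specific probe set (0.12, adjusted p = 0.53), whereas HSPA9 was -1.49 on its gene-specific probe set. BOLA3 lost its call with control 2 or either knockout array left out, LYRM4 when either of the knockout arrays was dropped, CIAPIN1 with any array left out and HSPA9 without knockout 1 (highest adjusted p 0.079, 0.071, 0.090 and 0.052).

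Of 16 partners and regulators of LCN2, 3 rose and 1 fell, a share of 25% that is near the 24.0% of all genes. CEBPB, a transcription factor of inflammatory and stress responses, stood at 12.64 and 12.66 in control and at 10.31 and 10.64 in knockout cells. It fell by 2.17 (SE 0.13; adjusted p = 0.00083, limma), 4.51-fold, and kept its call with each array left out. NFKBIZ, a nuclear partner of NF-kB known for its role in LCN2 induction, rose by 0.32 (SE 0.07), and BDH2, a dehydrogenase linked to mammalian siderophore synthesis, rose by 0.37 (SE 0.09). The NF-kB subunits RELA (-0.04) and NFKB1 (0.25), the inhibitor NFKBIA (0.26) and the cytokines IL1B (-0.02), IL6 (-0.07) and TNF (0.05) did not pass the test. SLC22A17, which encodes a receptor for LCN2, was -0.10, and MMP9, whose protein binds LCN2, was 0.01. CEBPD was called higher (0.65), but its gene-specific probe set gave -0.19 (adjusted p = 0.47), its averaged probe sets 0.23 (adjusted p = 0.14) and reference gene scaling 0.40, which was called. BDH2 was not called on its gene-specific probe set (0.22), with the mean of its probe sets (0.30) or under reference gene scaling (0.12), nor NFKBIZ under the last (0.07). BDH2 and NFKBIZ lost their calls with any array left out and CEBPD when either of the knockout arrays was dropped (highest adjusted p 0.21, 0.18 and 0.089).

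**Figure D4:**
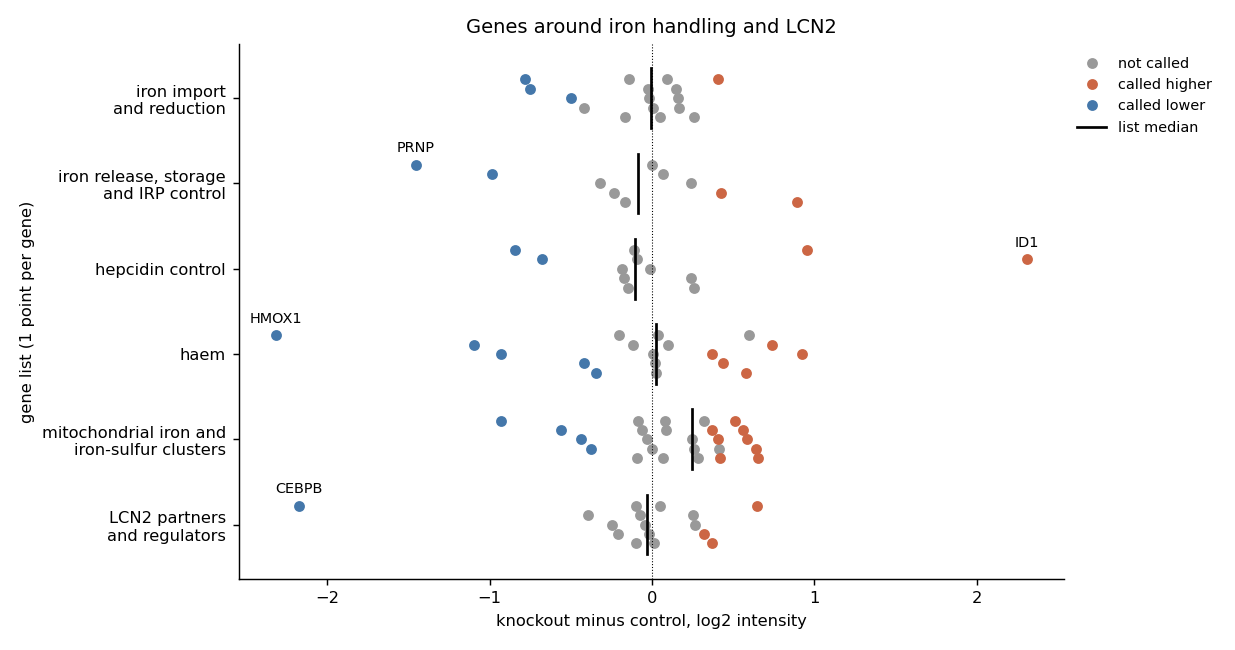
Change of each of the 97 measured genes in the 6 lists (knockout minus control, log2 intensity), with 1 point per gene coloured by call and a vertical bar at each list median. HMOX1 and CEBPB lie at -2.31 and -2.17 and ID1 at 2.31, while list medians run from -0.10 for hepcidin control to 0.25 for mitochondrial iron, which is -0.002 under reference gene scaling.

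Likeness of pattern was measured as the Euclidean distance between log2 values, each gene centred on its own mean over the 4 arrays. The genes nearest to LCN2 were SEL1L (distance 0.09), CIMAP1B (0.10), EML2-AS1 (0.11) and PRKAB2 (0.11), which changed by -2.45, -2.42, -2.40 and -2.53. Nearest to SLC40A1, the called member with the largest rise, were ADGRF1 (0.15), AADAC (0.16), HMGCS1 (0.23) and LUM (0.25), which changed by 1.43, 1.31, 1.32 and 1.37. With 4 arrays in 2 groups this measure reads little more than the size of the group difference.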

How the data were processed

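The authors deposited 1 table of log2 intensities for 54613 probe sets on 4 arrays. RMA and the affy package are named, with no version, in the submitters' processing notes; RMA corrects background, normalizes arrays to a common distribution and summarizes probes, so differences are relative to other transcripts and those of dim probe sets are compressed. Their size and range gave the log2 scale. Genome build and detection calls were not used here.

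Probe sets were named from the platform annotation and symbols updated by Entrez number to RefSeq GRCh38.p14: 41091 had 1 symbol, 1801 had several and 11721 none listed. The group difference was fitted with limma 3.58.1 under R 4.3.3 (lmFit, eBayes, no covariates, all 4 arrays), tested on simulated data, with 2 residual and 3.27 prior degrees of freedom and Benjamini-Hochberg adjustment over 19775 genes. The labels do not say whether arrays of a group came from separate cultures, so p-values measure only the spread between these arrays, whose number limits the precision. No set test was run.

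Members and lists were chosen with earlier results of these data known. Named genes were the members, PRMT6, in each list up to 4 called genes with the largest change, and the 4 genes nearest to LCN2 and to SLC40A1. Others named with values (list members beside them, and cell markers) were chosen after their values were seen. Alternatives were the mean of probe sets, gene-specific probe sets, brighter genes only, an intensity trend, reference gene scaling, a replicate block, a change of 1 or more, and each array left out. Promoter windows came from RefSeq, GRCh38.p14; 9 of the 10 members had 1 or more.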

Additional observations from a re-analysis of the deposited data

How the results depend on the processing

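The direction of all 8 genes held under each alternative that gave a value. With brighter genes, an intensity trend or the replicate block the difference itself cannot change, so only the other settings could have altered a direction. Of the 28 named genes called with all arrays, 6 kept their calls with each array left out, and 1, CEBPD, reversed, to -0.19 on its gene-specific probe set. Requiring a change of 1 or more left 257 genes higher and 427 lower (684 in all), 1 and 4 in the wider iron lists and 1 member higher. Gene-specific probe sets covered fewer genes, and gave 1613 of 16782 genes higher and, in the wider lists, 10 of 74. Reference gene scaling gave 1233 higher and 7280 lower (8513 in all), 11 and 36 in the wider lists, and 7 members called, 5 of them lower. With 1 array left out, genes called ranged from 508 to 2629, those higher from 154 to 1371 and those lower from 354 to 1258; in the wider lists 1 to 9 were higher and 5 to 12 lower; and 1 to 3 members were called, 0 to 2 higher. A lone knockout array is assumed to vary like the controls. PRMT6 ran from -0.44 to -0.28 there; it was not called with gene-specific probe sets or the replicate block, at -0.36 in both, but was called with brighter genes (adjusted p = 0.0086), an intensity trend (0.015) and reference gene scaling (-0.61). What caused the differences between settings was not tested. Same-numbered arrays share only a number (correlation of deviations across genes 0.05). With the replicate block 3972 genes and 3 members were called, and among named genes BDH2 and NFKBIZ were not. FTL and STEAP3 have no gene-specific probe set, and HAMP lies below the brighter genes. With no detection calls, low intensities (HAMP, and LCN2 in knockout cells) have no stated limit.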

Other observations

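A probe set listed under FTH1P5, a pseudogene of the ferritin heavy chain, read 13.31 and 13.33 in control and 12.74 and 12.62 in knockout cells. It was lower by a log2 change of -0.64 (SE 0.09; adjusted p = 0.0095, limma over probe sets), with no overlap between groups. It is of the type that can read several near-identical transcripts, so which transcript it reads was not tested. This gene was chosen after its values were seen.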
